A study of Mus musculus with 5 samples.

Results

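Long intergenic non-coding RNAs (lincRNAs) were followed through the differentiation of mouse embryonic stem cells (ES cells) into spinal motor neurons (MNs). The array carried 16194 probes designed to lincRNA loci among 55681 mouse probes, or 29.1%. They were found by their systematic name, which for these probes is a chromosome position on the mouse assembly mm9 in place of a transcript accession. Probes sharing a position and a strand were read together as 1 locus strand, which gave 4610 locus strands at 3543 loci, among 38006 features of the array when all probes were grouped by their systematic name. Of the loci, 1067 had probes to both strands, 2473 to 1 strand, and 3 carried no strand in their name. Loci can overlap: 2101 of the 3543 overlapped another one, and merging overlaps left 2226 regions. Counts of locus strands are therefore not counts of separate loci. The forward (F) and reverse (R) strands held 2318 and 2289 locus strands, and whether this letter names the strand of the transcript or of the probe is not given in the sources used here.

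LincRNAs are transcripts without a long open reading frame that lie between protein-coding genes. Many were first recognised from chromatin, as intergenic domains carrying the marks of an active promoter followed by those of a transcribed body. They are typically spliced and polyadenylated, expressed at lower levels than mRNAs and more often limited to one cell type, and some act on chromatin or on the expression of genes nearby. In ES cells, lincRNAs have been tied to the maintenance of pluripotency, and in the nervous system many are transcribed beside genes for patterning factors.

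Wild type male ES cells were measured before differentiation (ES). Embryoid bodies (EBs), the floating cell aggregates in which differentiation takes place, were measured after 8 h of retinoic acid (Day2), 1 day of retinoic acid (Day3) and 2 days of retinoic acid (Day4), and as an MN culture after 5 days of retinoic acid (Day7). Retinoic acid (RA) gives neural cells a spinal identity, and the Shh signal given with it, for which the study's methods name the agonist SAG, gives them a ventral one. The labels describe the Day7 sample as 5 days of RA and elsewhere put the RA and Shh treatment between day 2 and day 5. Cells were not sorted, so each value is an average over the EBs, and a larger share of expressing cells and more RNA per cell cannot be told apart. Each time point was measured on 1 Agilent one-colour array of the same design, so there was no spread between replicates and no test was made. A change of at least 2-fold is used throughout as a rule of size, and the number of arrays limits the precision of every value.

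Levels are log2 signals after quantile normalization, which gives all arrays the same distribution. The probe with the highest mean over ES, Day3, Day4 and Day7 stood for its locus strand. A spot is called well above background where the scanner software marked it so, and a probe that was not keeps its own value or, if higher, takes the floor of that array, which is the lowest value among its well-above-background probes. Changes against such a probe are bounds, written as "at least". Probes of 1 locus strand share a target and are not replicates, but the number of them that moved together is given beside each locus as a measure of support.

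Marker genes of the labelled stages were read on the same arrays, with exceptions in most lists. Of 6 ES cell markers, 5 fell at least 2-fold from ES to Day7, among them Pou5f1, which fell by 4.17 on the log2 scale, while Nanog was at 9.20 in ES, highest on Day4 at 9.98, and at 8.80 on Day7. All 6 MN markers rose from Day4 to Day7, as did all 4 neuronal markers, but 2 of the MN markers, Isl1 and Lhx3, were lower on Day3 than in ES. Chat, the enzyme that makes acetylcholine, was not well above background in ES and reached 12.21 on Day7, at least 249-fold higher. Of 6 neural progenitor markers, 5 rose from ES to Day3 and Olig2, the factor of MN progenitors, went the other way, from 10.34 in ES to 7.87, before it reached 11.47 on Day4. Among 4 mesoderm and endoderm markers, 3 were lower on Day7 than in ES and Foxa1, also a floor plate gene, rose by 5.37 log2 units, while Sox17, of the endoderm, had first risen 4.45-fold from ES to Day3. Of 3 glial markers, 1 rose from Day4 to Day7. The Day7 array was alone on its slide, so for it an effect of the slide and one of the stage cannot be told apart.

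Probe by probe, lincRNAs were detected less often than the rest of the array at every stage. Of the lincRNA probes, 44.8% were well above background in ES, 41.0% on Day3, 53.5% on Day4 and 46.6% on Day7, against 65.0%, 64.3%, 70.7% and 68.9% of the other probes. The Day2 array stood apart, with 81.8% of lincRNA probes and 88.7% of other probes well above background. A locus strand counted as well above background where any of its probes was, which held for 71.0% of them in ES and 96.1%, 66.0%, 78.1% and 71.9% on Day2, Day3, Day4 and Day7. The order was then turned, since the other features were at 64.6% in ES and 88.8%, 63.5%, 69.9% and 68.1% on those arrays, with a median of 1 probe each against 3 for a locus strand. Because the Day2 array stood apart, its levels are given but enter no call. Quantile normalization without it gave 564 raised and 1113 lowered locus strands from ES to Day7, in place of 525 and 1051.

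**Figure D1:**
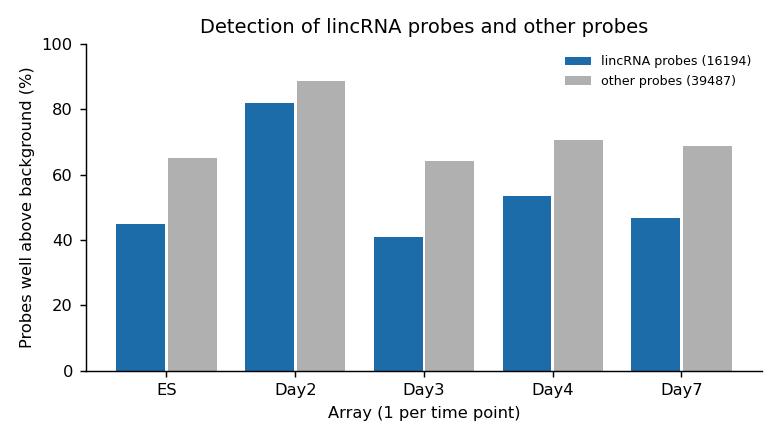
Share of probes marked well above background (%) on each of the 5 arrays, for 16194 lincRNA probes (blue) and 39487 other probes (grey). The lincRNA bars lie below the grey bars on every array, and both are highest on Day2, at 81.8% and 88.7%.

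Over ES, Day3, Day4 and Day7, 2729 locus strands (59.2%) were detected above background throughout and 696 (15.1%) on none of the 4 arrays, beside 58.2% and 24.1% of the other features. Those seen on a single one of the 4 arrays numbered 107 for ES, 36 for Day3 and 205 for Day4, with slightly fewer for Day7 than for ES. In percent these were 2.32, 0.781, 4.45 and 2.28 of the locus strands, and 1.53, 0.566, 2.52 and 2.9 of the other features. The Day4 array also had the highest share of locus strands well above background of these 4. Of 2662 locus strands whose brightest probe was well above background on all 4 arrays, 1249 (46.9%) stayed within a 2-fold range, as did 42.9% of all features measured in the same way. Detection moved with the length of the locus, since 76.1% of locus strands of up to 1000 bp, 86.9% of those of 1001 to 10000 bp and 87.5% of longer ones were well above background on at least 1 of the 4 arrays, with a median of 3, 3 and 4 probes.

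Between ES and Day7, more locus strands were lowered than raised. Of 3574 with a value, 1051 (29.4%) fell at least 2-fold and 525 (14.7%) rose, whereas over all features of the array 24.6% fell and 22.7% rose. With overlapping loci merged, the 1051 lay in 791 regions and the 525 in 412. The median change was -0.40 on the log2 scale for lincRNAs and -0.10 for the other features. The gap was narrower with the mean over probes in place of the brightest one. The medians were then -0.15 for lincRNAs and -0.11 for all features, and 671 locus strands fell and 451 rose. That mean takes in probes not well above background and changes nothing for a feature with 1 probe. Such features were 28131 of the 33396 others but 690 of the 4610 locus strands, so the setting acts mainly on lincRNAs. Support from a second probe was partial: at least 2 probes passed 2-fold for 401 of 924 lowered and 298 of 470 raised locus strands that had 2 or more probes. When the arrays were instead shifted to a common 75th percentile, the medians were -0.54 for lincRNAs and -0.42 for all features in place of -0.40 and -0.15. Without normalization, 43.6% of the changed locus strands and 53.2% of all changed features rose, in place of 33.3% and 48.0%.

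From ES to Day3, 549 of 3393 locus strands (16.2%) fell and 307 (9.05%) rose, while 11.2% of all features fell and 13.6% rose. With the mean over probes, under the limit given above, 299 fell and 244 rose. The medians were then -0.03 for lincRNAs and 0.00 for all features in place of -0.27 and -0.02. Without normalization, 8.58% of the changed locus strands and 14.7% of all changed features rose, in place of 35.9% and 54.8%. By Day4, 748 of 3692 (20.3%) lay at least 2-fold below ES and 421 (11.4%) above it, beside 15.3% lowered and 15.3% raised over all features. Little moved between Day3 and Day4, where 124 of 3586 (3.46%) fell and 86 (2.40%) rose, with 4.26% and 3.26% of all features. This step had no settled balance, since 41.0% of the changed locus strands rose here but 56.4% did with the 75th percentile shift and 22.0% without normalization, where all features went from 43.3% to 52.6% and 21.1%. From Day4 to Day7, 519 of 3684 (14.1%) fell and 400 (10.9%) rose, both below the shares of all features, 16.5% and 16.6%. Without normalization the whole array shifted in that step, by a median of 1.02 for lincRNAs and for all features alike, and 95.6% of the changed locus strands and 94.9% of all changed features rose, in place of 43.5% and 50.3%.

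**Figure D2:**
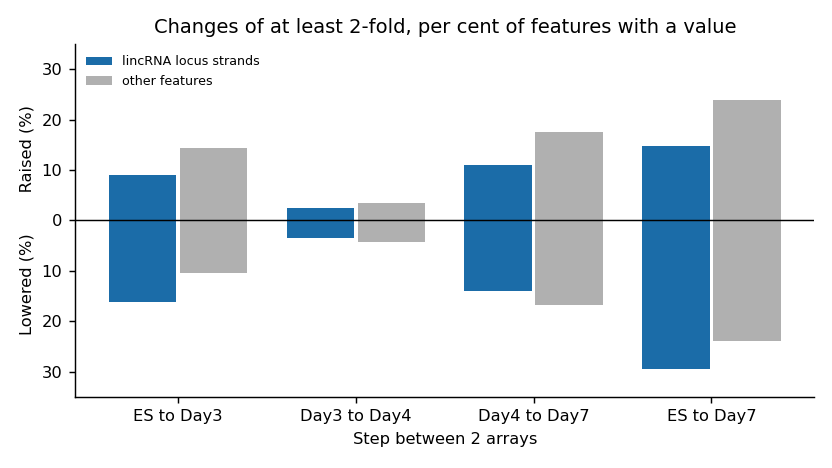
Share (%) of lincRNA locus strands (blue) and of the other features (grey) with a value that changed at least 2-fold in each step, raised above the line and lowered below it. The blue bars are shorter than the grey ones above the line in all 4 steps, and longer below the line from ES to Day3 and from ES to Day7.

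The timing of these changes was read from each array against ES. Of the 525 locus strands raised on Day7, 168 (32.0%) were already raised on Day3, 70 (13.3%) first on Day4 and 287 (54.7%) first on Day7, close to the 32.9%, 12.5% and 54.6% of all raised features. Of the 1051 lowered, 444 (42.2%) were already lowered on Day3, 153 (14.6%) first on Day4 and 454 (43.2%) first on Day7, where all lowered features gave 32.5%, 14.4% and 53.2%. The early risers had a median change to Day7 of 2.26 on the log2 scale and those first raised on Day7 one of 1.48, beside 2.49 and 1.75 over all features. A further 64 locus strands, 20.8% of those raised on Day3, were raised on Day3 and Day4 but not on Day7, as were 23.6% of all features raised on Day3.

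Among loci that rose early, the forward strand of chr2:115900355-115900904 (mm9) changed most by Day3. Its levels were 5.01 in ES and 10.19, 10.84, 10.85 and 10.62 on Day2, Day3, Day4 and Day7, and ES alone was not well above background. It was at least 56.9-fold higher on Day3 than in ES, and all 3 probes passed 2-fold. The level then stayed flat: from Day3 to Day7 no step reached 2-fold in any probe.

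The forward strand of chr11:96175764-96176029, a locus of 266 bp, had levels of 5.74 in ES and 11.36, 10.72, 11.97 and 10.74 on Day2, Day3, Day4 and Day7. ES was the low array, and the locus was 31.6-fold higher on Day3 in its brightest probe, with 3 of 3 probes past 2-fold. The rise from Day3 to Day4, 2.38-fold, and the fall from Day4 to Day7, 2.35-fold, were past 2-fold in all 3 probes too.

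A transient course was seen on the reverse strand of chr3:87757295-87774970. Its levels were 5.19 in ES and 5.79, 10.03, 9.55 and 7.29 on Day2, Day3, Day4 and Day7. Day3 and Day4 were the high arrays, at 28.7-fold above ES for Day3, and the locus fell 4.78-fold from Day4 to Day7. All 4 of its 5 probes that had a value in these steps passed 2-fold in both.

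Other loci climbed in steps. The reverse strand of chr15:102926581-102932542 had levels of 3.54 in ES and 3.28, 7.20, 7.90 and 9.83 on Day2, Day3, Day4 and Day7, with ES not well above background, and its brightest probe was at least 50.2-fold higher on Day7 than in ES, with 3 of 3 probes past 2-fold. On chromosome 1, the forward strand of chr1:139795171-139796306 stood at 2.72 in ES and 8.58, 5.50, 7.51 and 10.03 on Day2, Day3, Day4 and Day7, at least 57.8-fold higher on Day7 than in ES in the brightest probe, again with 3 of 3 past 2-fold. Its Day2 level came from 1 bright probe, the others being at 2.48 and 3.05 on that array. Later still, the forward strand of chr16:77670599-77691642 was not well above background in ES, at 2.75, or on Day3, at 3.95, but was on Day2, at 5.39 in 1 of its 2 probes. The brightest probe reached 7.84 on Day4 and 8.61 on Day7, and the other one 7.66 and 8.18.

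Overlapping loci on chromosome 11 were raised by Day3 and rose further from Day4 to Day7. For chr11:49933305-49934805, the forward strand had levels of 6.80 in ES and 6.91, 8.38, 8.88 and 12.29 on Day2, Day3, Day4 and Day7, a 45.0-fold rise from ES to Day7, or 5.49 on the log2 scale. The other probe, not well above background in ES, rose by at least 5.41. The forward strand of chr11:49932129-49938154 contains it and has 1 probe, which rose 33.1-fold. These are 1 region probed at separate positions, not independent loci.

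A fall followed by a rise was seen on the reverse strand of chr6:36790208-36792056. Its levels were 6.68 in ES and 5.99, 5.61, 4.34 and 9.97 on Day2, Day3, Day4 and Day7, and Day4 was not well above background. Its brightest probe was at least 49.7-fold higher on Day7 than on Day4 and 9.76-fold higher than in ES, and all 3 probes passed 2-fold from Day4 to Day7.

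Among the falls from ES to Day7, the reverse strand of chr3:75451370-75459674 had the largest measured change supported by every probe among the loci named here. Its levels were 13.30 in ES, 10.47 on Day2, 7.07 on Day3 and 6.66 on Day4, and Day7 lay between those last values. ES was the high array, Day2 lay between, and the last 3 were level with each other. The fall from ES to Day7 was 79.2-fold, and its 4 probes fell by 5.81 to 6.96 on the log2 scale.

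The reverse strand of chrX:50087925-50101700 declined at every step instead, from 10.08 in ES to 9.30, 8.25, 6.56 and 3.55 on Day2, Day3, Day4 and Day7, where it was no longer well above background. All 7 probes fell at least 2-fold from ES to Day7, and the brightest one fell at least 43.1-fold. At chrX:135882029-135892277, the reverse strand followed a similar stepwise course, at 11.02, 10.96, 9.49, 7.72 and 6.44 over the 5 arrays in order, a 24.0-fold fall from ES to Day7 with an SD of 0.12 on the log2 scale over its 3 probes. At chr10:69844350-69844784, the forward strand dropped mainly before Day3, at 10.31, 8.45, 6.38, 5.62 and 5.17 over the arrays in order, a 35.5-fold fall from ES to Day7 in the brightest probe, with 3 of 3 past 2-fold. Late loss was seen on the reverse strand of chr2:152172745-152184745, which held between 12.87 and 13.67 from ES to Day4 and was at 9.31 on Day7, with 3 of 3 probes past 2-fold from Day4 to Day7.

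Large changes also came from single probes. The forward strand of chr13:19617358-19617879 had the largest bound of any locus named here, with levels of 12.36, 12.06, 14.09 and 3.62 on Day2, Day3, Day4 and Day7, an ES level just below that of Day3, and a Day7 signal at least 693-fold lower than on Day4. Its other 2 probes were at 2.36 to 3.37 on the 4 arrays other than Day2 and were well above background on none of them. The 1 probe of the reverse strand of chr8:67552315-67561235 fell from 14.36 in ES to 9.65 on Day3 and 9.50 on Day4 and stood at 14.33 on Day7, and no second probe was there to compare. Of the other probes of locus strands raised from ES to Day7, 71.2% of those with a value also passed 2-fold and 5.32% passed it in the opposite direction, and the shares for lowered locus strands were 53.8% and 6.77%.

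**Figure D3:**
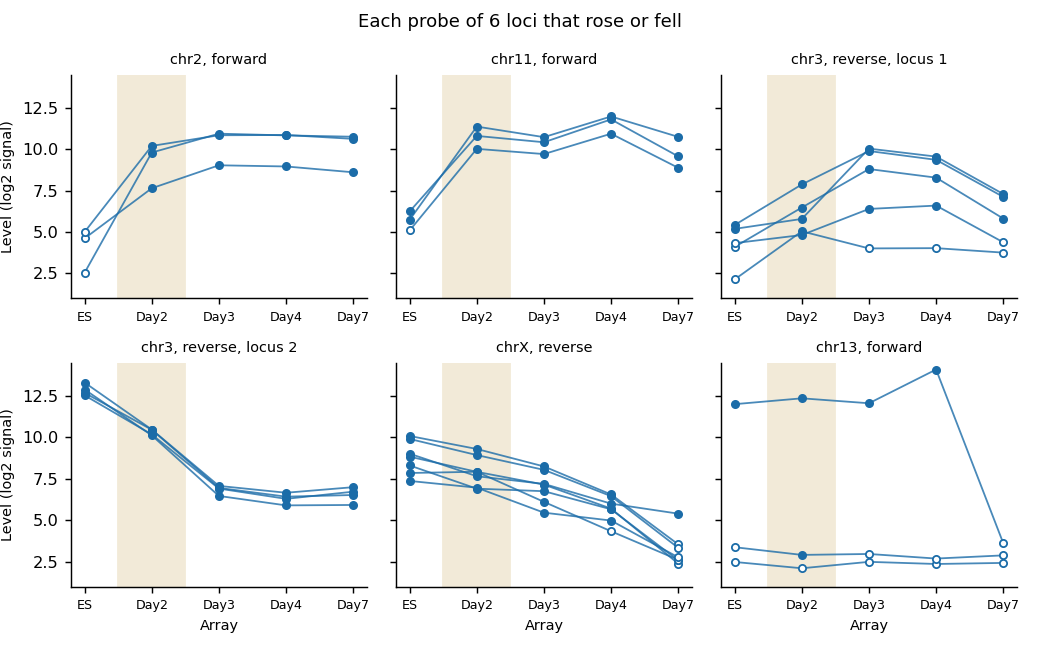
Level of each probe (log2 signal, quantile normalized) on the 5 arrays for 6 locus strands, with filled points for probes well above background and open points for the rest. Locus 1 of chromosome 3 is chr3:87757295-87774970 and locus 2 is chr3:75451370-75459674. The shaded Day2 array enters no call, and the drop on chromosome 13 is carried by 1 of 3 probes.

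A locus strand was called restricted to a stage where it was well above background there and in none of its probes on the other arrays among the 4, with a level at least 2-fold above the higher of floor and own value on each of them. By this rule, 33 locus strands (0.716%) were restricted to ES, 76 (1.65%) to Day3 or Day4 and 24 (0.521%) to Day7, where over all features the shares were 0.482%, 1.36% and 1.2%. Without normalization these sets held 62, 40 and 62 locus strands, so their order rests on the scaling. With the mean over probes, which takes in probes not well above background, they held 6, 20 and 12. At the threshold, the nearest locus strands inside for Day7 were at 2.03-fold on the forward strands of chr17:14683411-14698476 and chr7:86661031-86661558, and the nearest one outside was at 1.99-fold on the reverse strand of chr6:57695178-57695277. For Day3 or Day4 the nearest ones were at 2.00-fold inside and 1.99-fold outside, and for ES at 2.04-fold inside and 1.92-fold outside. Second probes passed the rule for 1 of 29 ES-restricted, 8 of 61 Day3- or Day4-restricted and 6 of 18 Day7-restricted locus strands with 2 or more probes. For Day3 or Day4, the probes of a locus strand could pass on different arrays, so passing is not always agreement. From Day3 to Day4, probes ran from -3.15 to 1.85 log2 units on the forward strand of chr10:61486151-61488363. On that of chr9:121846340-121848578 they ran from -2.16 to 2.46.

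Chromosome 16 held 6 of the 24 locus strands of the Day7 set but 156 of all 4610. Whether these 6 belong to 1 transcript was not tested, so they are not read as 6 independent loci. All 6 lay on the forward strand in a stretch of 402 kb, from 40070103 to 40472481, in which 15 locus strands were probed, 11 forward and 4 reverse. The ends of the stretch are those of the 6 loci, for which the rule already asks for a rise over Day4. Of the other 5 forward locus strands in it, 3 rose at least 2-fold from Day4 to Day7 and 1 had no value. Of these 3, chr16:40307931-40318856 spans locus e and overlaps another of them, so it is not independent of that locus. The others overlap none of the 6 but lie in a stretch bounded by them, and nothing is read from the share of the 3. Named a to f in order of position, the 6 are chr16:40070103-40073270, chr16:40096026-40097242, chr16:40267386-40268181, chr16:40283097-40284822, chr16:40312038-40315564 and chr16:40471828-40472481. Each has 3 probes.

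Locus c had levels of 2.80 in ES and 5.34, 2.92, 2.67 and 10.22 on Day2, Day3, Day4 and Day7. It was at least 32.1-fold higher on Day7 than on any other of the 4 arrays. All 3 probes reached at least 9.77 on Day7 and were not well above background on ES, Day3 and Day4. Locus f followed the same course at 2.97, 8.63, 3.34, 3.92 and 9.63 over the 5 arrays in order, at least 21.2-fold higher on Day7 than on the other 3. Its Day2 level again came from 1 probe, since the others stood at 3.08 and 3.25 on that array.

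Locus e stood at 4.46, 7.80, 3.44, 2.87 and 9.22 over the arrays in order, and locus d at 3.05, 3.66, 3.32, 2.83 and 9.02. Both were high on Day7 alone of the 4 arrays used, at least 16.0-fold and 14.0-fold in the brightest probe, and 3 of 3 probes passed the rule at each. The bounds were smaller at locus a, at least 2.68-fold with 2 of 3 probes passing, and locus b, at least 3.66-fold with 1 of 3 probes passing. At locus a the Day7 level was 6.64, and at locus b it was 7.09.

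**Figure D4:**
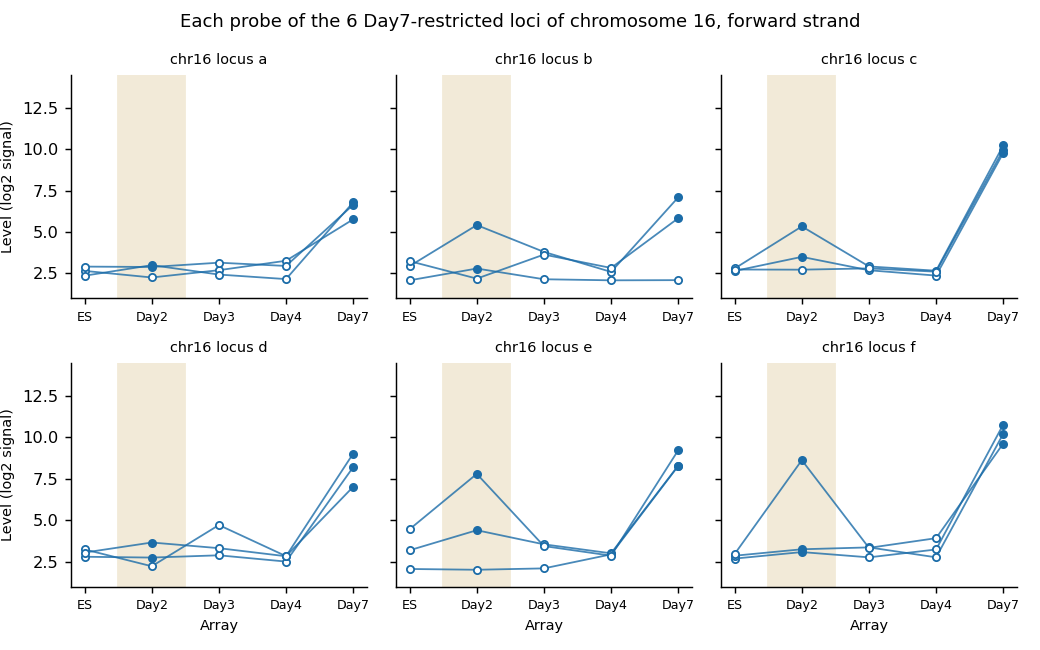
Level of each probe (log2 signal, quantile normalized) on the 5 arrays for loci a to f, with filled points for probes well above background and open points for the rest, and Day2 shaded. From ES to Day4, apart from Day2, every point is open, and on Day7 all probes but 1 of locus b are filled.

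Of the 4 reverse locus strands in this stretch, 2 had no value from Day4 to Day7, 1 moved by 0.42 on the log2 scale and 1 fell. That last one, the reverse strand of chr16:39984031-40081556, which spans locus a and was picked out after its values were seen, had levels of 13.97 in ES and 12.98, 13.59, 13.24 and 10.94 on Day2, Day3, Day4 and Day7. It was high until Day4 and fell by 2.31 on the log2 scale from Day4 to Day7. Between d and e, the forward strand of chr16:40307070-40308718 rose by at least 3.93 log2 units between ES and Day7, but was left out of the Day7 set by 1 probe at 6.43 on Day3. Outside chromosome 16, the reverse strand of chr10:109653855-109858347 was the other Day7-restricted locus strand with all 3 probes passing. It stood at 3.27 in ES and 5.14, 3.68, 2.86 and 8.43 on Day2, Day3, Day4 and Day7, at least 9.28-fold above the other 3 arrays. The remaining named ones, such as the reverse strand of chr13:98635795-98646617 at 9.96 on Day7, rested on 1 probe.

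Of the Day3- or Day4-restricted locus strands, the reverse strand of chr8:48476637-48492537 had the most probes behind it. Its levels were 4.66 in ES and 5.55, 7.01, 6.98 and 4.10 on Day2, Day3, Day4 and Day7, and 4 of 5 probes passed the rule. It was high on Day3 and Day4 alike, and its Day3 level was at least 5.12-fold above ES and Day7. The reverse strand of chr8:48485495-48485865, which lies inside it, gave 6.41 on Day3 and 6.22 on Day4 in its only probe.

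A Day4-restricted pair lay side by side on the X chromosome. At chrX:123303474-123305531, the forward strand stood at 2.13 in ES and 4.39, 2.14, 7.50 and 3.21 on Day2, Day3, Day4 and Day7, and that of chrX:123306246-123307974 at 2.61, 4.75, 3.43, 7.31 and 4.60 over the arrays in order. Both were high on Day4 alone of the 4 arrays. Their Day4 signals were at least 7.18-fold and 6.31-fold above ES and Day7, with 2 and 1 of their 3 probes passing, and at least 4.86-fold and 4.27-fold above Day3, in 1 probe each. Among signals seen on Day3 alone, the forward strand of chr15:58985008-58985429 stood at 8.51 on Day3, at least 13.9-fold above the other 3, in 1 of 3 probes, and that of chr15:5969454-5994540 at 7.92 in 1 of 10 probes.

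ES restriction rested almost wholly on single probes. The reverse strand of chr13:98479793-98481177 had the largest bound, with levels of 10.53 in ES and 6.93, 3.77, 3.99 and 3.47 on Day2, Day3, Day4 and Day7, at least 39.8-fold above the other 3, in 1 of 3 probes. At chr8:87513394-87514107, the reverse strand had all 3 probes well above background in ES and none on Day3, Day4 or Day7, at 7.76 in ES and 8.05 on Day2 against 4.66, 3.61 and 2.08 later, but 1 of the 3 passed the fold rule. The 1 locus strand with 2 probes passing was the forward strand of chr2:173420987-173480087, picked out for that reason, at 6.53 in ES, 4.12 on Day2 and 2.68 to 3.24 later, at least 2.48-fold above the other 3.

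Where both strands of a locus were probed, both were usually detected. Of the 1067 such loci, both strands were well above background at 64.9% in ES, 56.8% on Day3, 73.3% on Day4 and 64.1% on Day7, and at 94.3% on Day2. A single strand was seen at 300, 362, 238 and 308 loci on ES, Day3, Day4 and Day7. It was the forward one at 144, 165, 110 and 135 of them and the reverse one at 156, 197, 128 and 173.

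From ES to Day7, 762 of these loci had a value on both strands. Both strands fell at 98 loci, both rose at 11, a single strand passed 2-fold at 349, and the strands moved in opposite directions at 44. The forward strand fell and the reverse strand rose at 28 of the 44, and the reverse held at 16. At 12 of the 44, at least 2 probes passed 2-fold on each strand. The count was lower with the mean over probes, after normexp and with detection on both arrays of the step, as the last section gives. No restricted locus strand had its other strand restricted to the same stage, and that other strand, where probed, was well above background on the stage for 11 of 13 ES-restricted, 15 of 23 Day3- or Day4-restricted and 3 of 5 Day7-restricted locus strands.

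The locus chr3:40439525-40509975 had the most even support for opposite changes on its forward strand. That strand stood at 10.74 in ES and 10.04, 9.45, 9.07 and 7.85 on Day2, Day3, Day4 and Day7, and its 4 probes fell by 2.56 to 2.90 log2 units between ES and Day7. The reverse strand stood at 6.75, 5.55, 7.73, 7.56 and 9.09 over the arrays in order, a 5.07-fold rise from ES to Day7 in its brightest probe, but its probes ran from -1.27 to 2.34, bounds included, and 2 of 5 passed 2-fold upward, with 1 lacking a value. At chr2:31001736-31006911, the reverse strand went from 4.33 in ES, not well above background, to 8.31 on Day3 and 7.32 on Day7, at least 7.92-fold from ES to Day7 with 5 of its 9 probes past 2-fold and 3 without a value. Its forward strand fell 4.70-fold over the same arrays, with 2 of 8 probes past 2-fold and 5 without a value.

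At chr8:34646787-34680312 all 5 forward probes fell from ES to Day7, the brightest from 7.57 to 5.59, while 1 of 5 reverse probes carried the rise on that strand, from 4.52 in ES, not well above background, to 6.52 on Day7. The largest opposite change on 1 strand, at chr4:101010948-101032148, rested on 1 of 10 forward probes, which rose at least 40.1-fold while another forward probe went from 6.79 to 4.98 and the brightest reverse probe fell 3.83-fold. The strands of a locus are compared by their own changes, and their levels come from different probes and are not set against each other.

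**Figure D5:**
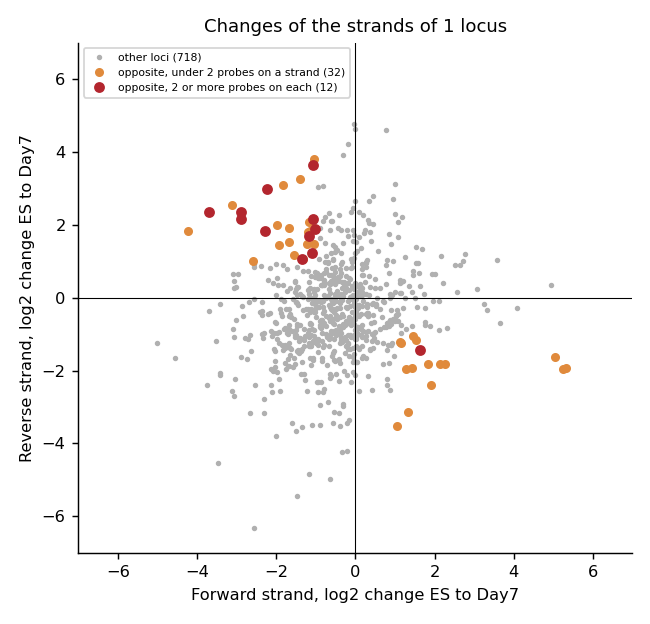
Log2 change from ES to Day7 of the forward strand (x axis) and the reverse strand (y axis) of the 762 loci with a value on both. Loci with opposite changes of at least 2-fold are coloured, red for the 12 with 2 or more probes past 2-fold on each strand, and most coloured points lie at the upper left, where the forward strand fell and the reverse strand rose.

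Long non-coding RNAs with a transcript accession, whose probes are not among those above, were matched by symbol from lists of known genes. An RNA left unmatched may still be probed under another name. Whether any of the loci above covers a listed RNA was not tested. Of 8 imprinted ones, 6 were matched, and from ES to Day7 2 rose and 1 fell at least 2-fold. Meg3, transcribed from the maternal copy of an imprinted domain, stood at 14.17 in ES and 14.28, 15.28, 15.18 and 16.19 on Day2, Day3, Day4 and Day7, a 4.08-fold rise from ES to Day7. H19, another maternally expressed RNA, rose 2.00-fold and Nespas fell 2.57-fold. Of 13 broadly expressed ones, 3 were matched: Tug1 rose 4.83-fold, while the snoRNA host genes Snhg3 and Snhg12 fell 4.73-fold and 4.34-fold.

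Of 14 neural ones, 3 were matched and had no value from ES to Day7. Six3os1, transcribed beside the forebrain factor gene Six3, was well above background on Day3 at 6.10 and on Day4 at 6.01, and on neither ES nor Day7. Of 7 listed RNAs of the Hox clusters, Hoxa11os alone was matched, at 6.29 in ES and 5.63 on Day7. None of the 4 listed pluripotency RNAs was matched by name.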

How the data were processed

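The authors hybridised 1 RNA sample per time point to 1 Agilent SurePrint mouse array, and the deposited scanner files hold spot intensity after background subtraction and detrending by Agilent Feature Extraction 10.5.1, not normalized between arrays. The table of log2 values that the authors deposited equals the mean log2 intensity of a probe minus the 75th percentile of its array, within 0.01. Control and outlier spots were left out, log2 intensities were averaged per probe and quantile-normalized (limma 3.58.1 in R 4.3.3, Python 3.11.15, numpy 2.4.6, pandas 2.3.3, matplotlib 3.10.9). No spot was saturated, and the median SD between spots of a probe, which is technical error within an array, was 0.06 to 0.11 on the log2 scale. Probes were matched to symbols through RefSeq accessions (26300 probes, 19897 symbols). Gene models and sequence of assembly mm9 were not used here, so loci carry no annotation beyond their position. The members and lists were chosen with earlier results of these data known. Named loci are the 10 largest rises and falls from ES to Day7, 5 for each other step, 10 per restricted set, up to 10 loci with opposite strands, and 5 groups of neighbours within 100 kb. Loci on chromosome 18 were counted but not named. A locus strand dim on both arrays had no value, and one whose brighter side did not exceed the floor was entered as 0. Alternatives were a 75th percentile shift, no normalization, quantile normalization without Day2, normexp (offset 50) on median signals, the deposited values, another detection flag, detection on both arrays of a step, averages over all probes of a locus strand, and 1.5-fold and 4-fold. A requirement of 2 probes and a floor at the 1st percentile were added after the data had been seen.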

Additional observations from a re-analysis of the deposited data

Results flagged for a closer look

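Signal seen on Day2 and nowhere else stood out: 547 of 4610 locus strands, or 11.9%, were well above background on Day2 and on none of the other 4 arrays. Of the 696 locus strands dark on ES, Day3, Day4 and Day7, 78.6% were well above background on Day2. The other features of the array did the same, at 15.0% of all and 62.3% of those dark elsewhere. The median Day2 level of these locus strands was 3.44 on the log2 scale, and the lowest value of a probe well above background was 2.60 on Day2 and 4.05 to 5.22 on the other arrays. There was 1 Day2 array, and what set it apart was not tested.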

How the results depend on the processing

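No paired analysis was possible because there was only 1 array for any stage, and for the same reason no array could be left out of a group and no slide term could be fitted. Of 181 counts recomputed under other settings, 104 stayed within 1.5 times the reported one and 77 did not. Requiring 2 probes left 115 raised and 143 lowered locus strands between ES and Day3, 20 and 25 in the step to Day4, 210 and 178 from Day4 to Day7, 298 and 401 from ES to Day7, and 1, 8 and 6 restricted to ES, to Day3 or Day4 and to Day7, with 12 loci of opposite strands. At 4-fold, in the same order, the counts were 75 and 96, 18 and 32, 120 and 100, 216 and 293, then 13, 31 and 12, and 5. At 1.5-fold they were 553 and 1096, 259 and 251, and 711 and 990 for the steps up to Day7, with 55 restricted to ES, 120 to Day3 or Day4 and 115 opposite loci. After normexp they were 111 and 309, 36 and 38, 212 and 250, 294 and 580, with 18 restricted to ES, 25 to Day3 or Day4 and 16 opposite loci. Without normalization 148 rose and 1576 fell from ES to Day3, 230 fell from Day3 to Day4, 1887 rose and 86 fell from Day4 to Day7, and 62, 40 and 62 were restricted in the order above. With the mean over probes 244 rose and 299 fell from ES to Day3, and the falls were 74 from Day3 to Day4 and 671 from ES to Day7, 6, 20 and 12 were restricted, and 7 loci were opposite. With the other detection flag 461 rose and 842 fell from ES to Day3, while 284 rose and 274 fell by Day4, 14 were restricted to ES and 42 to Day3 or Day4, and a single strand was seen at 91, 141, 49 and 99 loci on ES, Day3, Day4 and Day7. Counting only probes detected on both arrays of a step, 160 rose from ES to Day3, then 40 rose and 64 fell in the next step, 299 rose from ES to Day7 and 24 loci were opposite. The 75th percentile shift and the deposited values both gave 145 raised from Day3 to Day4, and the floor at the 1st percentile gave 44 restricted to Day3 or Day4. Quantile normalization without Day2 moved none of the counts past 1.5 times. For the 65 named locus strands that changed from ES to Day7, 514 of 544 recomputed values kept the direction at 2-fold or more and none changed sign. Most of these were named for the size of their changes on the same arrays, and all were already past 2-fold. Their stability is therefore no test of the other locus strands. The cause of the shifts in the counts was not tested. Dim probes near background limit the calls, and the lowest value of a probe well above background differed between arrays. Negative control spots differed too, with a median raw signal of 61 in ES and 37, 35.5, 31.5 and 70 on Day2, Day3, Day4 and Day7. The median local background beside them was 29.5 to 35. What this does to the calls was not tested.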
